A study of Mus musculus with 4 samples.

Results

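The mouse genes that encode the diphtheria toxin (DT) receptor homologue, its coreceptor, the protease that activates the toxin, the toxin's target and the enzymes that modify this target were examined in cochlear RNA. They are *Hbegf*, *Cd9*, *Furin*, *Eef2*, *Dph1*, *Dph2*, *Dph3* and *Dph5*, 8 of the 30028 gene names that the array files list for non-control probes, and every non-control probe carrying one of these names was taken, which gave 12 probes. RNA was pooled from 8 mice per group (4 females and 4 males, 5 weeks of age, B6J background), and each of the 4 groups was hybridised to 1 single-colour (Cy3) Agilent array. Wild-type mice were either left untreated or given 50 μg/kg of DT 7 days before dissection, and so were *Prestin*-*hDTR* mice, and groups of 4 signals below are in this order (wild-type without and with DT, then *Prestin*-*hDTR* without and with DT). In the *Prestin*-*hDTR* mice, called OHC-TRECK in the labels, a modified human HB-EGF, the DT receptor, is expressed from the promoter of *Slc26a5*, which encodes prestin, the motor protein of outer hair cells (OHCs).

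The membrane-anchored precursor of HB-EGF is the entry point of DT in primate cells, whereas the mouse protein binds the toxin poorly, which is why a human cDNA makes a mouse cell type sensitive. CD9 associates with the receptor at the cell surface, furin nicks the toxin between its fragments, and acidification of the endosome lets the catalytic fragment cross into the cytosol. There the fragment ADP-ribosylates diphthamide, a modified histidine found in elongation factor eEF2, and translation stops. Diphthamide is built by the products of *Dph1*, *Dph2* and *Dph3*, which act in its first step, of *Dph5*, a methyltransferase, and of further genes that complete the residue.

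All 8 genes had a probe well above background on all 4 arrays, and no gene passed 2-fold in any comparison. Signals were divided by the 75th percentile of their array before log2 was taken, so that a normalized log2 signal of 0 equals that percentile. Between 62.2% and 70.6% of the 39429 probes of an array were well above background, and 0 of the spots for the 8 genes were saturated. With a single pooled array per group there are no replicates, so differences are described without p-values, and the low number of arrays limits how precise they are. The error at hand is technical. Where a probe was spotted repeatedly, its spots on an array varied by a median SD of 0.066 (log2), which gives an SD of 0.094 for a difference between 2 single spots. Multiplied by the normal quantile, this sets a technical limit of 0.18, which does not cover labelling and hybridisation error between arrays or the spread between mice. Percentile 90 of the SD of repeated spots lay between 0.152 and 0.177 on the arrays, so this limit is too narrow for the more variable probes.

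*Hbegf*, the mouse gene for the growth factor whose human form serves as the receptor, was read by 1 probe on chromosome 18. Its normalized log2 signal was -1.50 without and -1.75 with DT in wild-type mice, and -1.46 without and -0.89 with DT in *Prestin*-*hDTR* mice. The DT-treated *Prestin*-*hDTR* array was therefore the highest and the DT-treated wild-type array the lowest, and the untreated arrays of both genotypes lay between them, 0.04 apart and within the technical limit. The other steps in this order, 0.25 and 0.57, exceeded that limit. In DT-treated *Prestin*-*hDTR* mice the signal was 1.48-fold higher than in untreated *Prestin*-*hDTR*, 1.53-fold higher than in untreated wild-type and 1.82-fold higher than in DT-treated wild-type mice. Differences at least as large in size were seen for 7.16%, 6.94% and 2.41%, respectively, of all probes measured on both arrays of the pair. DT-treated wild-type mice were 1.19-fold lower than untreated wild-type mice, and 16.1% of probes differed by at least as much.

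With regard to the transgene, the *Hbegf* signal of untreated *Prestin*-*hDTR* mice was 1.03-fold that of untreated wild-type mice (log2 difference 0.04, and between 0.03 and 0.11 under the alternatives), and 75.7% of the 25915 probes measured on both arrays differed by at least as much. The array carries 1 probe for *Hbegf*, and 0 probes were found whose description names the human cDNA. Whether the mouse probe also binds the human transcript was not tested, since no human sequence was used here. These signals therefore describe a mouse *Hbegf* probe, and the amount of transgene RNA was not measured by a probe of its own.

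*Cd9*, which encodes the tetraspanin coreceptor, gave normalized log2 signals of 4.58 in untreated and 4.44 in DT-treated wild-type mice, and of 4.43 in untreated and 4.78 in DT-treated *Prestin*-*hDTR* mice (chromosome 6, 125410387 to 125410446; probe positions were taken from the array files, mm9 build). As for *Hbegf*, the DT-treated *Prestin*-*hDTR* array was the highest, and it exceeded each of the others by more than the technical limit, though with normexp background correction not untreated wild-type mice. It stood 1.28-fold above untreated *Prestin*-*hDTR*, 1.27-fold above DT-treated wild-type and 1.15-fold above untreated wild-type mice. In these pairs, 16.6%, 15.3% and 41.0% of probes differed by at least as much. The other arrays were within the technical limit of each other.

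*Furin*, the gene of the convertase that nicks the toxin, had normalized log2 signals of 1.430 and 1.559 in wild-type mice without and with DT and of 1.510 and 1.501 in *Prestin*-*hDTR* mice (chromosome 7, 87534082 to 87534141). The whole range was 0.13, and no pair of arrays differed by more than the technical limit.

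The target gene *Eef2* showed the narrowest range of the 8 genes. In the order wild-type without and with DT, then *Prestin*-*hDTR* without and with DT, its normalized log2 signal was 4.55, 4.53, 4.55 and 4.54 (chromosome 10, 80644934 to 80644993), a range of 0.02 or 1.02-fold. After DT the difference was -0.02 in wild-type and -0.0051 in *Prestin*-*hDTR* mice. With quantile normalization between arrays the first of these became 0.082, and the sign of several other differences of *Eef2* turned as well, all within the technical limit.

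*Dph1* encodes a subunit of the enzyme that starts diphthamide synthesis. Its main probe (chromosome 11, 74991369 to 74991428) had normalized log2 signals of -1.61 in untreated and -1.80 in DT-treated wild-type mice, and of -1.71 in untreated and -1.37 in DT-treated *Prestin*-*hDTR* mice. The DT-treated *Prestin*-*hDTR* array was the highest, 1.26-fold above untreated *Prestin*-*hDTR*, 1.34-fold above DT-treated wild-type and 1.18-fold above untreated wild-type mice. These differences exceeded the technical limit, and 18.0%, 10.4% and 33.4% of probes differed by at least as much. With the mean of all probes of the gene, the log2 difference from DT-treated wild-type mice was 0.23 in place of 0.43. The remaining arrays were within the limit of their neighbours in order.

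A further probe of *Dph1* passed background on 1 array, that of untreated *Prestin*-*hDTR* mice, with a normalized log2 signal of -5.65, so it gives no fold for DT. It is shown because its 60 bases are spread over 408 bases of the genome (chr11:74994416-74994823, minus strand, mm9), whereas the main probe lies in 1 stretch, and because it was spotted 10 times on each array.
Dph1 probe: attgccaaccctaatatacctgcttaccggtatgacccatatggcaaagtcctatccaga

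The signal of *Dph2*, *Dph3* and *Dph5* was lowest on the array of *Prestin*-*hDTR* mice given DT and highest on that of untreated wild-type mice, except that with the mean of all probes *Dph5* was not lowest there, and that with scaling to the array median *Dph3* was highest in untreated *Prestin*-*hDTR* mice. For *Dph2*, the partner of *Dph1* in the first step, the normalized log2 signals were -0.25 and -0.29 in wild-type mice without and with DT and -0.34 and -0.47 in *Prestin*-*hDTR* mice (chromosome 4, 117561519 to 117561578). Those of *Dph3*, which supplies electrons to this step, were 0.48, 0.35, 0.45 and 0.29 in the same order (chromosome 14, 32893752 to 32893811). Those of *Dph5* were 0.11, -0.06, 0.03 and -0.11 (chromosome 3, 115631895 to 115631954). The extremes differed by 1.17-fold, 1.14-fold and 1.16-fold, just beyond the technical limit, and differences of this size or more were found for 37.0%, 43.4% and 37.8% of probes. That of *Dph5*, -0.22, was within the limit with normexp (-0.11) and with the mean of all probes (-0.040), that of *Dph3* with normexp and with the authors' value table, and those of all these genes with scaling to the array median. Neighbours in these orders were within the limit of each other.

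The probes of *Dph3* and *Dph5* did not give the same picture throughout. A further *Dph3* probe (32894554 to 32894613) had the same lowest and highest arrays as the main one, with a log2 difference of -0.24 between them, and the third *Dph3* probe did not pass background on any array. The further *Dph5* probe (115603768 to 115603827) ran the other way, with its highest signal in DT-treated *Prestin*-*hDTR* mice and a log2 difference of 0.14 from untreated wild-type mice, within the technical limit.

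**Figure D1:**
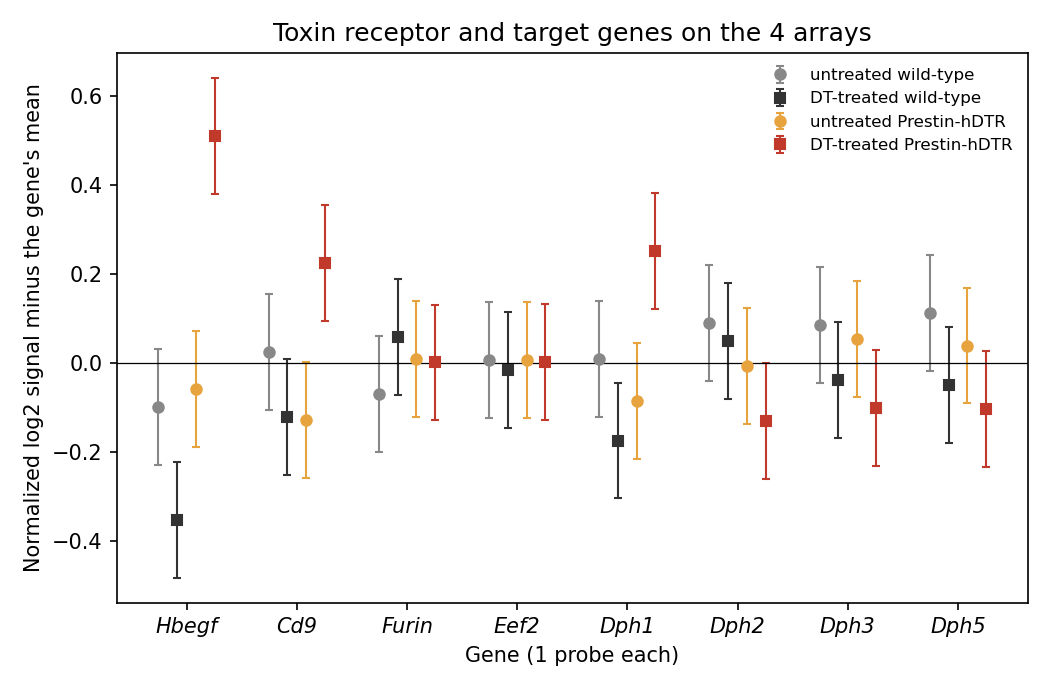
Normalized log2 signal of each gene on the 4 arrays, minus the gene's mean over the arrays (1 probe per gene, 1 array per group). Bars are the median SD of repeated spots (0.066) times the normal quantile, either way, and show technical error only. The DT-treated *Prestin*-*hDTR* array stands highest for *Hbegf*, *Cd9* and *Dph1* and lowest for *Dph2*, *Dph3* and *Dph5*.

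To determine how the genes compare with the array as a whole, the same 2-fold threshold was applied to every probe well above background on at least 1 array of a pair. Untreated *Prestin*-*hDTR* against untreated wild-type mice, the comparison that addresses integration of the transgene, gave 0 of the 8 genes, beside 3.33% of all probes compared. DT in wild-type mice gave 0 of 8, beside 2.55% of probes. DT in *Prestin*-*hDTR* mice gave 0 of 8, beside 3.84%. For DT-treated *Prestin*-*hDTR* mice, the count was 0 of 8 against DT-treated wild-type mice, beside 3.24% of probes, and 0 of 8 against untreated wild-type mice, beside 3.91%. With 8 genes, a count of 0 is close to these shares and says nothing particular about them.

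At 1.5-fold, *Hbegf* was counted against both wild-type groups. This made 1 of 8 genes against DT-treated wild-type mice, where 8.35% of probes passed, and 1 of 8 against untreated wild-type mice, where 10.4% did. The count at 1.5-fold was 0 of 8 for DT in *Prestin*-*hDTR* mice (8.46% of probes), for DT in wild-type mice (5.81%) and for the untreated genotypes (6.74%). The median log2 difference over the 8 genes was -0.05 between the untreated genotypes, -0.14 after DT in wild-type mice and -0.0070 after DT in *Prestin*-*hDTR* mice. Over all probes measured on both arrays, the medians were -0.01, -0.03 and -0.0042.

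**Figure D2:**
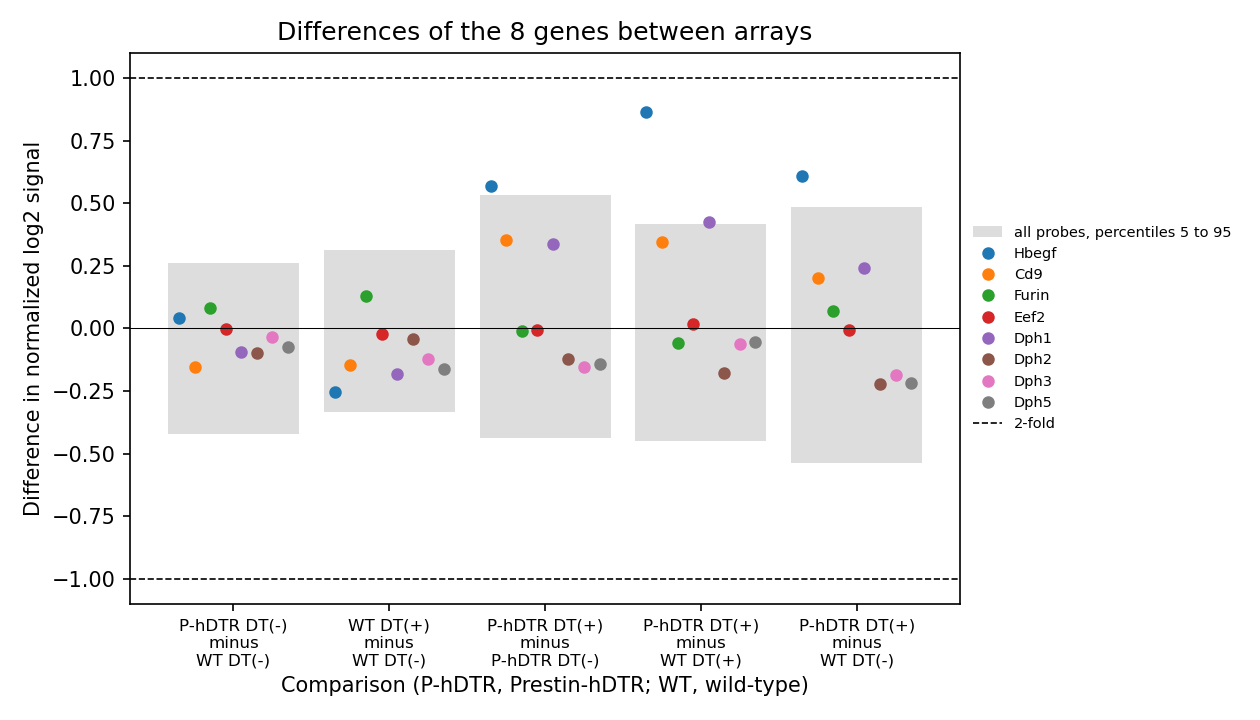
Differences in normalized log2 signal of the 8 genes in the 5 comparisons (points), with the range from percentile 5 to percentile 95 of all probes measured on both arrays (grey) and the 2-fold threshold (dashed). *Hbegf* lies above the grey range in the 3 comparisons of DT-treated *Prestin*-*hDTR* mice, with 0.57, 0.86 and 0.61, *Dph1* lies at its upper edge in the comparison with DT-treated wild-type mice (0.43), and no point reaches the threshold.

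DT was given to both genotypes, and its differences were set side by side. The log2 difference of *Hbegf* after DT was -0.25 in wild-type and 0.57 in *Prestin*-*hDTR* mice, and the gap between these was 0.82. Among the 23688 probes well above background on all arrays, 3.65% had a gap at least as large. For *Dph1* the values were -0.18 and 0.34, with a gap of 0.52 (9.20% of probes), and for *Cd9* they were -0.15 and 0.35, with a gap of 0.50 (10.02% of probes). The wild-type values of *Dph1* and *Cd9* were within the technical limit, which that of *Dph1* exceeded with quantile normalization and with normexp. Under other alternatives they were smaller, with -0.040 for *Dph1* with the mean of all probes and -0.050 for *Cd9* with quantile normalization. For the other 5 genes, the gap was between -0.14 (*Furin*) and 0.02 (*Dph5* and *Eef2*).

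The genes whose 4 signals followed *Hbegf* most closely were found by the Euclidean distance between log2 signals centred on each probe's mean, over the 23688 probes above. They were *Lbhd2* (distance 0.025, listed as *A230065H16Rik* in the array files), *Agt* (0.051), *Cmss1* (0.072), *Sucnr1* (0.086) and *Lats2* (0.088). *Agt*, which encodes angiotensinogen, had signals of -1.35, -1.55, -1.31 and -0.75 in wild-type mice without and with DT and *Prestin*-*hDTR* mice without and with DT.

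Related genes, 63 in 10 lists, were described in the same way, and 1 gene passed 2-fold in 1 comparison. This was 1 of 59 genes compared between the untreated genotypes, beside 3.33% of all probes. All 63 genes had a probe, and between 57 and 59 were compared in each pair of arrays. The exception was *Mmp3*, a metalloproteinase that can release HB-EGF from the membrane. It was well above background in untreated wild-type mice and in no other group, and its signal was at least 2.21-fold lower in untreated *Prestin*-*hDTR* mice, where the dim side was set at the lowest signal well above background on its array. It did not pass 2-fold there with normexp, it was not compared when all 4 arrays had to be well above background, and without that floor it also passed after DT in wild-type mice.

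Of the other EGF family ligands, 5 of 7 were compared in most pairs, and *Areg* and *Ereg* did not pass background on any array. *Btc*, which encodes betacellulin, had normalized log2 signals of -5.22, -5.27, -5.09 and -4.61 in the order wild-type without and with DT, then *Prestin*-*hDTR* without and with DT, and it was 1.57-fold higher in DT-treated *Prestin*-*hDTR* than in DT-treated wild-type mice. *Nrg1* was lowest in DT-treated *Prestin*-*hDTR* mice, with 0.98 beside 1.49, 1.35 and 1.43. *Epgn* (epigen) passed background on the arrays of both untreated groups, with -5.46 in wild-type and -5.28 in *Prestin*-*hDTR* mice, and on neither array after DT. The floor was higher after DT, at -5.48 in wild-type and -5.44 in *Prestin*-*hDTR* mice, beside -5.93 and -6.39 without DT. *Epgn* was thus close to it, and its bound after DT in wild-type mice was -0.02. Without the floor it passed 2-fold after DT in *Prestin*-*hDTR* mice. In that comparison the median log2 difference of this list was 0.16, with *Epgn* at its bound of -0.16. The receptors *Egfr*, *Erbb2*, *Erbb3* and *Erbb4* had a median of -0.02 in that comparison, with 2 of 4 above 0, and this median changed sign with quantile normalization, with normexp background correction and with the mean of all probes.

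Among genes of the receptor's partners at the cell surface, none of the tetraspanin and heparan sulfate lists passed 2-fold in any comparison. Between 2.55% and 3.91% of all probes did, so for such short lists this says nothing particular. Of the sheddases, *Mmp3* passed, as given above. Of the 8 tetraspanins, integrins and partners of CD9, 8 had a difference above 0 against untreated *Prestin*-*hDTR* mice, with a median of 0.18, and 6 against DT-treated wild-type mice, with a median of 0.28. Against untreated wild-type mice, 5 were above and 3 below 0, with a median of 0.16. The largest of these differences from untreated *Prestin*-*hDTR* mice was that of *Itga3* (integrin α3), at 1.51-fold, and its difference from DT-treated wild-type mice was 1.40-fold. The median of all probes measured on both arrays was -0.0042, 0.0065 and -0.016 in these comparisons. Heparan sulfate proteoglycans, to which HB-EGF binds, and the genes of their synthesis had medians of 0.29 and 0.27 in the first 2 of these comparisons, with 6 and 7 of 7 genes above 0, and a median of 0.30 against untreated wild-type mice, with 7 of 7 above 0. *Sdc4* (syndecan 4) had normalized log2 signals of 0.35, 0.41, 0.42 and 1.01, the last in DT-treated *Prestin*-*hDTR* mice. Among the sheddases of HB-EGF and their partner *Nrdc* (*Nrd1* in the array files), *Adam9* was 1.31-fold and *Adam17* 1.25-fold higher in DT-treated than in untreated *Prestin*-*hDTR* mice, and the list's median was 0.19. Against untreated wild-type mice the list's median was -0.13, with 4 of 6 genes below 0, among them *Adam17* (-0.07) and *Adam12* (-0.30), both of which had their highest signal in untreated wild-type mice. This median was 0.0016 with quantile normalization.

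After binding, the toxin is taken up and must reach the cytosol. The 8 genes of endocytosis and acidification had a median log2 difference of 0.04 after DT in *Prestin*-*hDTR* and 0.04 after DT in wild-type mice, and the 7 genes linked to translocation and reduction of the toxin had 0.10 and 0.03, the second of which was 0.12 with quantile normalization. The vacuolar ATPase subunit gene *Atp6v0c* had normalized log2 signals of 3.88, 3.91, 3.89 and 3.96. For the other proprotein convertases, of which *Pcsk1* and *Pcsk4* passed background nowhere, the medians were -0.03 and 0.04. Elongation factors and regulators of eEF2 had medians of -0.05, whose sign turned with normexp, and -0.10, which became -0.0033 with quantile normalization, and the kinase gene *Eef2k* had signals of -3.50, -3.34, -3.57 and -3.62. The diphthamide genes *Dph6*, *Dph7* and *Dnajc24* had medians of 0.12 and -0.03, the second of which turned with scaling to the array median and with the mean of all probes, and the signals of *Dnajc24* were 0.39, 0.36, 0.47 and 0.65.

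The promoter of the transgene is that of an OHC gene, and OHC markers were examined beside the 8 genes. Of 5 markers, 4 (*Ocm*, *Strc*, *Chrna9* and *Chrna10*) fell by 2-fold or more with DT in *Prestin*-*hDTR* mice, whichever of the other groups they were set against, with a median log2 difference of -2.77 from untreated *Prestin*-*hDTR* mice. The summed signal of the markers, in multiples of the 75th percentile, was 22.5 without and 20.9 with DT in wild-type mice, and 23.0 without and 4.29 with DT in *Prestin*-*hDTR* mice, and *Ocm* (oncomodulin) contributed the highest signal. Their part in the differences of the 8 genes was not tested. In pooled tissue, fewer cells of a type and less RNA per cell cannot be told apart. The median differences of the same 5 markers were 0.21 between the untreated genotypes and 0.27 after DT in wild-type mice, the second of which was 0.16 with the mean of all probes.

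*Slc26a5*, whose promoter drives the transgene, was near background. Its normalized log2 signal was -4.89 without and -4.47 with DT in wild-type mice and -5.06 in *Prestin*-*hDTR* mice without DT, and with DT the latter did not pass background. Against untreated *Prestin*-*hDTR* mice this is a difference of at least 1.31-fold, and against untreated wild-type mice of at least 1.47-fold, both lower. Against DT-treated wild-type mice the log2 difference at this bound was -0.97. Without the floor, *Slc26a5* passed 2-fold in each of these comparisons, which made 5 of 5 OHC markers. The 250 bases before the start of this gene are given because the receptor is expressed from this promoter (RefSeq, GRCm38.p6, chr5:21865605-21865854, minus strand), although the construct carries a longer region and its limits were not mapped here. Capitals mark a GC box (GGGCGG, searched on both strands), which occurred 1 time here and at least 1 time in 32.7% of 32851 RefSeq promoters of the same length. TATAAA occurred 0 times (12.4% of promoters) and CCAAT 0 times (33.8%).
Slc26a5 promoter: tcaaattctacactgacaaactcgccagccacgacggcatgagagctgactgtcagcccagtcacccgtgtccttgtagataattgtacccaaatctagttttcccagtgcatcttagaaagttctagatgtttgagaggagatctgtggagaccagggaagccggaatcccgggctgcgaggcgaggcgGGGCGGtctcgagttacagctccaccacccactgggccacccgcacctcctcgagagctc

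The array on which *Hbegf*, *Cd9* and *Dph1* were highest also held the highest signal of all 5 macrophage markers, and *Cd68* and *Adgre1* (*Emr1* in the array files) rose by 2-fold or more against each other array. Their summed signal was 11.8 without and 11.1 with DT in wild-type mice and 10.2 without and 17.5 with DT in *Prestin*-*hDTR* mice, with *Csf1r* the highest, and all 5 were well above background on each array. Supporting cell markers, of which *Gjb6* contributed the highest signal in wild-type mice and *Gjb2* in *Prestin*-*hDTR* mice, summed to 110.0, 104.9, 109.8 and 125.7 in that order, and 0 of 4 passed 2-fold. The inner hair cell markers *Otof* and *Slc17a8* summed to 2.26, 2.44, 2.51 and 1.61, and 0 of 2 passed 2-fold. After DT in *Prestin*-*hDTR* mice their median log2 difference was -0.54, below percentile 5 of all probes measured on both arrays (-0.44). Between 2.55% and 3.91% of all probes passed 2-fold, so counts of 0 among so few markers say nothing particular. The part of the macrophage, supporting cell and inner hair cell markers in the differences of *Hbegf*, *Cd9* and *Dph1* was not tested.

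Markers of blood cells differed between the control arrays as well. The 5 neutrophil markers, led by *S100a9*, summed to 35.3 and 55.2 in untreated and DT-treated wild-type mice and to 12.6 without and 20.6 with DT in *Prestin*-*hDTR* mice, and in the absence of DT 5 of 5 were lower by 2-fold or more in *Prestin*-*hDTR* mice than in the wild type. The 5 platelet markers, led by *Pf4*, summed to 3.05, 4.70, 1.61 and 2.42 in the same order, and *Ppbp* and *Gp9* rose with DT in wild-type mice and, in the absence of DT, were lower by 2-fold or more in *Prestin*-*hDTR* mice than in the wild type. With normexp, *Gp9* did not pass 2-fold after DT in wild-type mice. *Gp1bb* and *Gp9* did not pass background in *Prestin*-*hDTR* mice given DT. Their normalized log2 signals there, -5.37 and -5.56, were no lower than in untreated *Prestin*-*hDTR* mice, -5.39 and -5.70, where they passed. Erythroid markers, led by *Alas2*, summed to 1.59, 3.91, 1.82 and 2.52, and 4 of 5 rose by 2-fold or more after DT in wild-type mice, beside 2 of 5 with normexp, where the list's median difference was 0.93 in place of 1.71. *Epb42* passed background in wild-type mice given DT and in no other group. *Klf1* passed background in each group but *Prestin*-*hDTR* mice given DT. The signal of *Klf1* there, -5.23, was again no lower than in untreated *Prestin*-*hDTR* mice, -5.46, where it passed.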

How the data were processed

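RNA of each group was pooled and hybridised to 1 Agilent array (Cy3), with the 4 arrays on 1 slide. The authors deposited the scanner output of Agilent Feature Extraction 11.5.1.1, in which the intensity of each spot is linear, background-subtracted and detrended within the array, without scaling between arrays. A value table deposited by the authors was found, by comparison, to be this intensity after division by a single number for each array. Its values are linear and uncentred, with array medians of 0.0865, 0.0853, 0.0828 and 0.0850, and were used as an alternative. The flags for background, saturation and outliers are scores of 0 or 1 set by that software.

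Control spots (1377 of 44397) and 149 to 228 outlier spots per array were left out, the remaining spots were averaged by probe, and flags were passed on to a probe if set on over 0.5 of its spots. Signals were divided by the array's 75th percentile and log2 was taken. Probes entered a comparison if well above background on either array. A side not well above background was raised to the lowest such signal of its array, unless its own was higher, and the fold is then a lower bound. The SD of repeated spots was taken over 299 to 311 probes per array with 7 to 10 spots. For 1 probe per gene, the probe with the highest mean was taken, after leaving out probes not well above background on any array. Named genes were the 8 genes, genes of 10 pathway and 8 marker lists, and the 5 nearest patterns to the gene with the widest range. The genes and lists were chosen with earlier results of these data known. The result of 1 marker list is not reported here.

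Names came from RefSeq (GRCm38.p6) for 29803 probes through the symbol, 1634 through the accession and 295 through a synonym, and were otherwise those of the array. RefSeq promoters were found for 6 of the 8 genes and for *Slc26a5*. No test was made with 1 array per group. The steps were tested on simulated data. In all, 9 alternatives were run, covering scaling, background correction (normexp of limma 3.58.1 in R 4.3.3, offset 50), the value table, the floor, the probe rule, the filter and the threshold. Python 3.11.15, numpy 2.4.6, pandas 2.3.3 and matplotlib 3.10.9 were used.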

Additional observations from a re-analysis of the deposited data

Results flagged for a closer look

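*Hbegf* differed in opposite directions after DT in the 2 genotypes, with a log2 difference of 0.57 in *Prestin*-*hDTR* and -0.25 in wild-type mice, both beyond 0.18, a limit from repeated spots on an array that does not cover error between arrays or mice. Of all probes measured on both arrays, 16.1% differed by at least as much as *Hbegf* between the wild-type arrays and 7.16% between the *Prestin*-*hDTR* arrays. The gap between them was 0.82. It rests on 1 array per group, and the difference between genotypes was not tested. After DT, the median log2 difference of erythroid markers was 1.71 in wild-type mice (0.93 with normexp), over 5 genes. In *Prestin*-*hDTR* mice it was 0.41, over 4 genes, since *Epb42* was compared in the wild type only. Each of these medians includes 1 gene at its bound, so they are not a like-for-like contrast. The median of the macrophage markers was -0.08 in wild-type and 0.99 in *Prestin*-*hDTR* mice. The part of such markers in the differences of *Hbegf* was not tested.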

How the results depend on the processing

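With 8 genes in 5 comparisons, 240 log2 differences were recomputed under 6 alternatives, and 227 kept their sign. The 13 that turned had a size of at most 0.054 in the main setting. The difference of *Hbegf* in DT-treated *Prestin*-*hDTR* mice was between 0.53 and 0.58 against untreated *Prestin*-*hDTR*, between 0.80 and 0.90 against DT-treated wild-type and between 0.56 and 0.67 against untreated wild-type mice. The difference of *Hbegf* between the untreated genotypes was between 0.03 and 0.11, and that after DT in wild-type mice between -0.26 and -0.22. Of the 240 values, 9 moved by more than the technical SD of a difference, 0.094. With quantile normalization, these were *Cd9* (-0.050) and *Eef2* (0.082) after DT in wild-type mice, and *Eef2* in DT-treated *Prestin*-*hDTR* against DT-treated wild-type mice (-0.087). With the mean of all probes of a gene, they were *Dph1* after DT in wild-type mice (-0.040) and in DT-treated *Prestin*-*hDTR* against DT-treated wild-type mice (0.23), and *Dph5* after DT in wild-type mice (-0.067), after DT in *Prestin*-*hDTR* mice (-0.028) and in DT-treated *Prestin*-*hDTR* against untreated wild-type mice (-0.040). The last was -0.11 with normexp. The further probes of *Dph1* and *Dph5* enter the mean by construction. For the other moves, the cause was not tested.

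The count of the 8 genes past the threshold was 0 in each comparison under the alternatives at 2-fold, and 1 at 1.5-fold in DT-treated *Prestin*-*hDTR* against either wild-type group. Of the pathway genes, 1 of 59 passed between the untreated genotypes, beside 3.33% of all probes. With normexp, or when a probe had to be well above background on all 4 arrays, 0 did. Without a floor, 1 passed after DT in wild-type and 1 after DT in *Prestin*-*hDTR* mice. At 1.5-fold, the count was 1 of 58 after DT in *Prestin*-*hDTR* mice, beside 8.46% of all probes. In DT-treated *Prestin*-*hDTR* mice it was 2 of 57 against DT-treated wild-type mice, beside 8.35% of probes. Against untreated wild-type mice it was 4 of 59, beside 10.4%. Of the list medians, 508 moved by less than 0.094 and 32 by more. No paired analysis was possible because each group has 1 array and no mouse is shared between groups. Signal near or below the background limit restricts *Mmp3*, *Slc26a5*, the further *Dph1* probe, *Epgn*, *Btc*, *Gp1bb*, *Gp9*, *Epb42* and *Klf1*, among others.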
